A study of Sus scrofa with 48 samples.

Results

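The genes described here are the RAB GTPases and the proteins of endosomal sorting. They were chosen by a rule on gene names, with earlier results of these data known. It takes all probes of the array whose gene name begins with RAB, VPS or SNX followed by a digit. The rule found 206 of the 60305 probes that are not controls, for 99 gene names (50 RAB, 27 VPS and 22 SNX) of the 45222 distinct entries in the gene name column, many of which are accessions. A gene was represented by its brightest probe. The brightest probe was tested for 95 genes, namely where the scanner software found it well above background on at least 12 of the 48 arrays. The other 4 were RAB6B and SNX13, which were well above background on 0 arrays, and RAB9B and RAB27B, which reached it on 2 arrays each. Since VPS16A and VPS16 have probes that share at least 20 bases, these 2 names may stand for 1 gene.

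RAB proteins are small GTPases that cycle between a GDP-bound and a GTP-bound form and give each membrane compartment its identity. Sorting nexins (SNX) bind phosphoinositides on endosomes, and VPS proteins form the complexes that sort and fuse them, such as retromer, which returns receptors from endosomes, ESCRT, which packs cargo into lumenal vesicles, and HOPS and CORVET, which tether membranes for fusion. In hepatocytes these routes carry lipoprotein, transferrin and asialoglycoprotein receptors and serve both the sinusoidal and the canalicular face of the cell.

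Liver RNA of 48 purebred Large White barrows was labelled with Cy3, with 1 array per pig. The pigs came from a low and a high residual feed intake (RFI) line, divergently selected over 8 generations. RFI is the feed eaten beyond a prediction, made in the study's selection index from daily gain and backfat thickness. Low RFI pigs are the more feed-efficient. From 74 days of age, 12 pigs of each line received a diet rich in fat and fiber (HF) and 12 a diet poor in both (LF). Liver was sampled at about 19 weeks of age, 2 hours after a meal. There was 1 line for each direction of selection, so that selection and drift cannot be told apart, and fat and fiber changed together in the diets.

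Median spot intensities of the arrays lay between 53 and 126 and 65.8% to 77.2% of probes were well above background. The 12 pigs of a group were spread evenly, with 2 on each of the 6 slides and equal numbers on both scan days. The hepatocyte markers albumin, transthyretin, APOA1, APOB, TF, SERPINA1 and HNF4A were all above background. The log2 of their summed signal spanned 12.75 to 13.25 in low RFI and 12.54 to 13.18 in high RFI pigs. In this and the other summed signals below, given in log2, the brightest markers weigh most. All levels below are log2 signals centred on the median of the tested probes of each array, so that a level of 0 is that of the median probe. Levels of different probes are not comparable with each other. In a tissue sample, fewer cells of a type and less RNA per cell cannot be told apart.

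Several genes are read by more than 1 probe, and the probe sequences show which of these readings are separate. The following 60-base probes, as given by the scanner output, are those for the gene with the strongest line effect, RAB28, numbered by brightness (probe 1 is described with its values), and for RAB4B and VPS13D. Capitals mark bases that a probe shares with another probe of the same gene.
RAB28 probe 2: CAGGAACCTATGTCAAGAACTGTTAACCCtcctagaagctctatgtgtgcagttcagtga
RAB28 probe 3: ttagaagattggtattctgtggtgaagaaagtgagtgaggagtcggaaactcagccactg
RAB28 probe 4: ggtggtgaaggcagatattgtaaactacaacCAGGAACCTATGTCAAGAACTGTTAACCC
RAB4B: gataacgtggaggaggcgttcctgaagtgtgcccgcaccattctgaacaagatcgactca
VPS13D probe 1: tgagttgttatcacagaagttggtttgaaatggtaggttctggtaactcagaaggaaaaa
VPS13D probe 2: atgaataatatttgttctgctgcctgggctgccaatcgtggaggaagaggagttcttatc
Probes 2 and 4 of RAB28 share 29 bases and are partly the same reading, whereas probes 1 and 3 share no run of 20 bases with any other RAB28 probe. Both probes of VPS13D are separate. By contrast, the 2 probes of RAB13 share 55 of their 60 bases and count as 1 reading.

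The first comparison was that of the lines. A probe was called at P under 0.01 with a fold change (FC) above 1.1, which 6.91% of the 45236 tested probes passed. Of the 95 genes, 7 were called (7.37%), a share near that background. Lower in low RFI pigs were RAB28, RAB4B, SNX10 and RAB31 (4 genes, background in this direction 3.49%), and higher were SNX19, RAB25 and SNX16 (3 genes, background 3.42%). At a P-BH (Benjamini-Hochberg over all tested probes, limma) of 5%, 4 of the 95 genes passed, against 3.93% of all probes. The median line effect was -0.021 for these genes and 0.005 for all probes, and the median absolute effect was 0.053 and 0.069. The sets are not alike in brightness. Well above background on all arrays were 91 of the 95 genes, but 36913 of the 45236 probes. In a fit of probes of that kind alone, 7.21% were called for line, and 7 of the 91 genes.

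**Figure D1:**
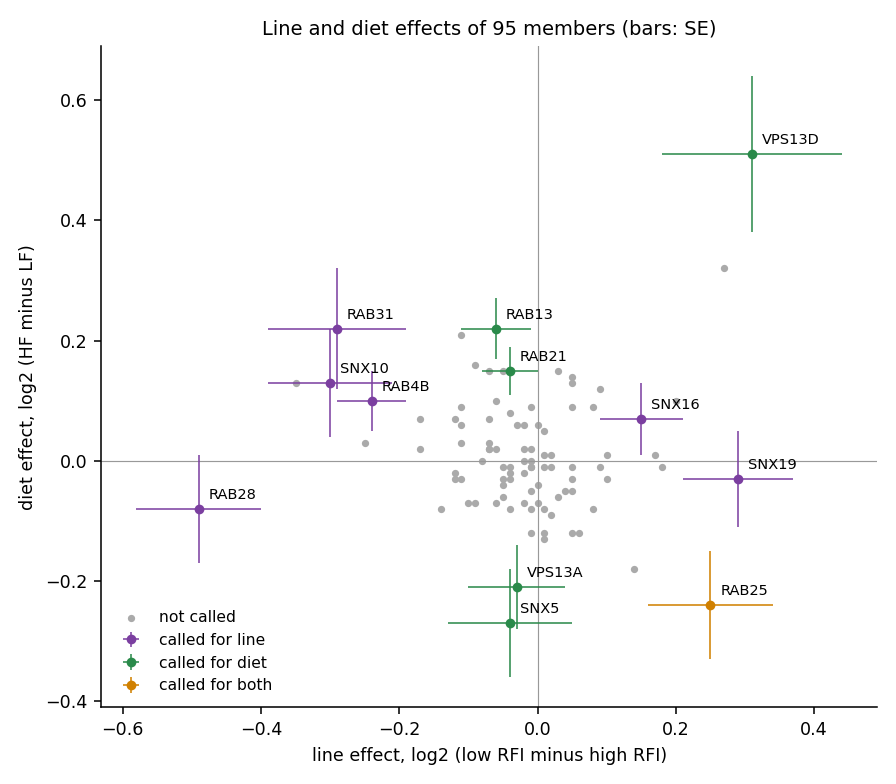
Each point is 1 of the 95 tested genes, with its line effect (log2, low RFI minus high RFI) on the x axis and its diet effect (log2, HF minus LF) on the y axis, and bars give the SE of genes that were called. RAB28 lies farthest to the left at -0.49, the brightest VPS13D probe highest at 0.51, and most genes sit close to 0 on both axes.

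RAB28, a farnesylated RAB linked to primary cilia and to the photoreceptors of the eye, was lower in the low RFI line. On its brightest probe the 24 low RFI pigs spanned 1.89 to 3.12 (median 2.57) and the 24 high RFI pigs 2.47 to 3.58 (median 3.12). The lines overlapped, but 23 of 24 low RFI pigs lay below the median of the high RFI pigs, and 11 lay below every one of them. The difference was -0.49 ± 0.09 (SE, log2), a 1.41-fold lower signal (limma, P-BH = 0.000307).

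The other 3 probes of RAB28 gave line effects of -0.54, -0.41 and -0.53 (P-BH = 0.00019, 1.77e-05 and 0.000461). On probe 3, low RFI pigs spanned -0.93 to -0.13 (median -0.48) and high RFI pigs -0.53 to 0.35 (median -0.03), and 24 of 24 low RFI pigs lay below the high RFI median. After removal of group means, the probes correlated across the 48 pigs at r between 0.77 and 0.94, as repeated readings of 1 transcript on the same arrays. RAB28 was lower in low RFI pigs on each of the 6 slides (difference of means from -0.70 to -0.30) and on both scan days (-0.50 and -0.49).

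**Figure D2:**
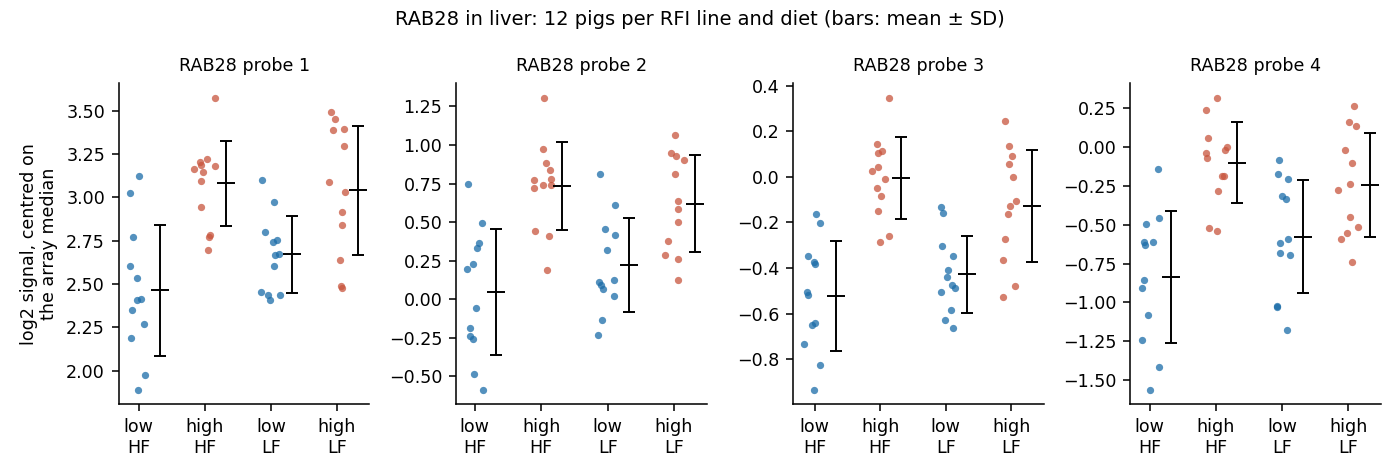
Log2 signal of RAB28 on its 4 probes, numbered by brightness, in 12 pigs per RFI line (blue low, red high) and diet, with mean ± SD as bars. On each of the 4 probes the mean of the low RFI pigs is lower under both diets, and the lines overlap.

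The line effect on RAB28 was -0.62 ± 0.13 (SE) within the HF diet and -0.37 ± 0.13 within the LF diet. The difference between these effects, -0.25 ± 0.18, did not pass the test (P = 0.172). Low RFI pigs fed HF spanned 1.89 to 3.12 and held the lowest values of the study, with an SD of 0.38, whereas those fed LF spanned 2.40 to 3.1 with an SD of 0.22. The diet effect on RAB28 was -0.08 ± 0.09 (P = 0.35).

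Among the 15 RABs of early and recycling endosomes, 3 were called for line, beside 6.91% of all probes, and nothing is read from so few genes. RAB4B, which takes part in the fast return of receptors from early endosomes to the cell surface, spanned -0.68 to -0.02 (median -0.41) in low RFI and -0.47 to 0.17 (median -0.12) in high RFI pigs. Its line effect was -0.24 ± 0.05 (P-BH = 0.00121), and 23 of 24 low RFI pigs lay below the high RFI median. All 6 slides gave the same direction (-0.39 to -0.10). RAB4A, its close relative, had a line effect close to 0 (P = 0.998).

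RAB31, which works between the trans-Golgi network and endosomes, spanned -2.54 to -1.16 in low RFI pigs (median -1.94) and -2.47 to -0.65 in high RFI pigs (median -1.69). Its line effect was -0.29 ± 0.10 (P = 0.00365, P-BH = 0.0747), with 19 of 24 low RFI pigs below the high RFI median. It was -0.13 (P = 0.0166) and no longer called with the normexp background correction, -0.18 in the deposited values, and -0.16 (P = 0.221) on scan day 1 alone. RAB25, a RAB11 relative of epithelial cells that guides apical recycling, went the other way. It spanned -3.02 to -1.39 (median -2.58) in low RFI and -3.23 to -2.23 (median -2.80) in high RFI pigs, a line effect of 0.25 ± 0.09 (P = 0.00614, P-BH = 0.104), which fell to 0.08 (P = 0.114) with normexp and to 0.14 (P = 0.0217) in the deposited values and was called in neither. The normexp setting adds an offset of 50, and the deposited values are not background-subtracted. Both can shrink the log2 effects of dim probes. RAB31 and RAB25, with all values below 0, are such probes, and so is RAB21, described below. RAB31 and RAB25 both failed the 5% limit of P-BH.

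The sorting nexins SNX10 and SNX19 passed that limit, in opposite directions, and SNX16 was called beside them. SNX10, which acts on endosome acidification and is known for its part in bone-resorbing osteoclasts, spanned 3.34 to 4.45 (median 3.78) in low RFI and 3.53 to 4.70 (median 4.20) in high RFI pigs. Its line effect was -0.30 ± 0.09 (P-BH = 0.0378, but 0.0707 with normexp and 0.0659 without the filter on dim probes), and 18 of 24 low RFI pigs lay below the high RFI median. SNX19, a sorting nexin anchored in membranes, spanned 1.19 to 2.34 (median 1.87) in low RFI and 1.13 to 2.12 (median 1.56) in high RFI pigs. Its line effect was 0.29 ± 0.08 (P-BH = 0.0368, but 0.0517 without that filter), and 23 of 24 low RFI pigs lay above the high RFI median. SNX16, which acts in traffic between early and late endosomes, had a line effect of 0.15 ± 0.06 (P = 0.00986, P-BH = 0.139). Low RFI pigs spanned -0.24 to 0.61 and high RFI pigs -0.17 to 0.49. The call of SNX16 was lost under 7 of the alternatives, among them slide as a block (P = 0.0101).

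SNX10 is also known from macrophages and RAB25 from epithelia, so markers of other cells are given beside them. Of the 7 tested macrophage and Kupffer cell markers, 0 were called for line by limma (median effect -0.18, range -0.24 to 0.18). At an unadjusted P under 0.05 stood 3, all lower in low RFI pigs, as SNX10 was. They were CSF1R (-0.24, P = 0.0102), AIF1 (-0.20, P = 0.0125) and VSIG4 (-0.20, P = 0.014). CD163 and CD68 also lay below 0, and CD14 (0.06) and LYZ (0.18) lay above. The summed signal of the 7 spanned 6.77 to 7.71 in low RFI and 7.11 to 7.88 in high RFI pigs. Among 6 other leukocyte markers, the integrin ITGB2 was called (-0.29). The 4 bile duct markers went both ways with line, from -0.35 (KRT7, called) to 0.40 (SOX9, P = 0.0505), and their summed signal spanned 0.90 to 2.51 in low and 0.68 to 2.65 in high RFI pigs. With diet, for which RAB25 was also called, their effects lay between 0.11 and 0.49, with 0 called by limma and 2 at an unadjusted P under 0.05, and the summed signal spanned 0.68 to 2.65 with HF and 0.75 to 1.98 with LF. The hepatocyte marker APOA1 was called for line (0.15, P = 0.00777). The part of these cells in the results was not tested.

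The second comparison was that of the diets, for which 4.61% of all tested probes were called. Of the 95 genes, 6 were called (6.32%). RAB13, RAB21 and VPS13D were higher with HF (3 genes, background in this direction 2.07%), and RAB25, SNX5 and VPS13A were lower (3 genes, background 2.54%). At a P-BH of 5%, RAB13 and the brightest VPS13D probe, with which the second VPS13D probe disagreed, remained, 2 of 95 genes against 0.455% of all probes. Without the filter on dim probes neither passed (P-BH = 0.0513 for RAB13 and 0.0747 for VPS13D), and VPS13D did not pass in the ANOVA without moderated variances (0.055). The median diet effect was -0.004 for these genes and -0.014 for all probes. In the fit of probes well above background on all arrays, 5.19% were called for diet, and 6 of 91 genes.

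Of the cell type markers tested, 0 were called for diet by limma, and some stood at an unadjusted P under 0.05. All 7 hepatocyte markers had effects below 0 (-0.17 to -0.06, with 3 at an unadjusted P under 0.05), and their summed signal spanned 12.54 to 13.25 with HF and 12.81 to 13.24 with LF. Of the 6 stellate cell and fibroblast markers, 3 lay under that limit, COL1A2 and COL3A1 at 0.23 and ACTA2 at -0.27. The beta-globin gene HBB of red cells had -0.57 (P = 0.0109), and the endothelial marker VWF had -0.33 (P = 0.0173). Of the macrophage and Kupffer cell markers, VSIG4 had 0.18 (P = 0.022) and CD68 had -0.16 (P = 0.0363). The part of all these cells in the diet results of the trafficking genes was not tested.

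RAB13, which moves cargo from the trans-Golgi network and recycling endosomes to the cell surface and acts at tight junctions, rose with HF. HF pigs spanned 5.91 to 6.53 (median 6.21) and LF pigs 5.68 to 6.46 (median 5.98). The diets overlapped, with 22 of 24 HF pigs above the LF median and 7 LF pigs below every HF pig. The difference was 0.22 ± 0.05, or 1.17-fold (P-BH = 0.0383), and it was above 0 on all 6 slides (0.12 to 0.34). Within the low RFI line the diet effect was 0.29 ± 0.07 and within the high RFI line 0.16 ± 0.07, and the difference of 0.13 between them did not pass the test (P = 0.221).

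VPS13D belongs to the VPS13 proteins, which bridge membranes and let lipids flow between them. On its brightest probe HF pigs spanned 3.73 to 5.89 (median 4.31) and LF pigs 3.16 to 4.79 (median 3.81), and 10 LF pigs lay below every HF pig. The diet effect was 0.51 ± 0.13, or 1.42-fold (P-BH = 0.0496). Its second probe gave -0.03 ± 0.05 (P = 0.628), and the 2 probes correlated across pigs at r = 0.17 once group means were removed. The probes thus disagreed. In the array's annotation the brightest probe belongs to a predicted transcript described as VPS13D-like and the second to VPS13D itself, so that the effect of 0.51 is that of the former probe, and which of them reads VPS13D was not tested. The only other VPS13 gene tested, VPS13A, was lower with HF by -0.21 ± 0.07 (P = 0.00354, P-BH = 0.138), with HF pigs from 0.31 to 1.25 and LF pigs from 0.58 to 1.28.

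**Figure D3:**
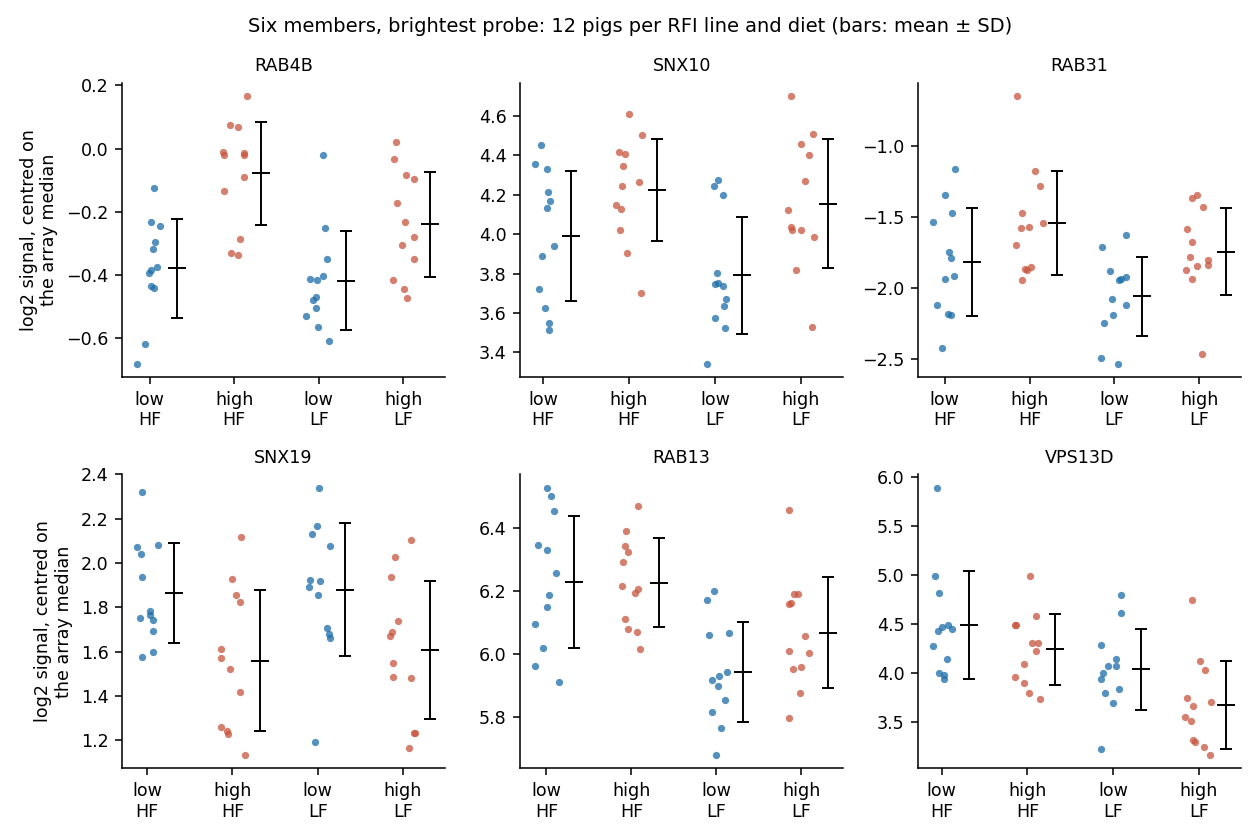
Log2 signal of the brightest probe of 6 genes in 12 pigs per RFI line (blue low, red high) and diet, with mean ± SD as bars and a y axis of its own in each panel. Group means of RAB4B, SNX10 and RAB31 are lower and those of SNX19 higher in low RFI pigs, while those of RAB13 and of the brightest VPS13D probe are higher with the HF diet, with overlap in every panel.

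RAB21, an early endosomal RAB that carries integrins, was higher with HF by 0.15 ± 0.04 (P = 0.00137, P-BH = 0.0996), but was not called with normexp (0.08, P = 0.0145), in the deposited values (0.10, P = 0.0149) or on scan day 2 alone (0.14, P = 0.0811). The diet effect was 0.25 ± 0.06 in high RFI pigs, which spanned -0.91 to -0.18 with HF and -1.01 to -0.67 with LF, and 0.05 ± 0.06 in low RFI pigs. The interaction was -0.20 ± 0.09 (P = 0.0284) and was not called. SNX5, a BAR-domain nexin that retrieves receptors from endosomes, was lower with HF by -0.27 ± 0.09 (P = 0.00513, P-BH = 0.154). HF pigs spanned -3.35 to -1.90 and LF pigs -2.80 to -1.37, and the effect was -0.17, still called, with normexp. RAB25 was the only gene called for both factors, with a diet effect of -0.24 ± 0.09 (P = 0.00871). HF pigs spanned -3.23 to -2.12 and LF pigs -2.87 to -1.39. Its diet call was lost with slide as a block (-0.24, P = 0.0125) and in the deposited values (-0.14, P = 0.0177).

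For the interaction of line and diet, 0 of the 95 genes were called by limma, against 0.376% of all tested probes. An ANOVA with the same terms and no moderated variances also called 0. At an unadjusted P under 0.05 stood 3 genes, RAB42 (0.35 ± 0.14, P = 0.0134), RAB21 and RAB4A (P = 0.0494), against 2.37% of all probes at that limit.

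Further probes of a gene extended some readings. Of the 102 tested probes that were not the brightest of their gene, 5 were called for line (3 of RAB28, 1 of SNX14 and 1 of VPS36), 5 for diet and 0 for the interaction by limma, beside 6.91%, 4.61% and 0.376% of all probes. SNX14 is a nexin of lysosomal function whose loss affects cerebellar neurons. Its 9 probes, of 8 distinct sequences, all had line effects between -0.20 and -0.11, of which 1 was called (-0.20, P = 0.00376). On its brightest probe both lines had a median of 1.76. There, low RFI pigs spanned 0.40 to 2.08, with 6 of them below every high RFI pig (1.47 to 2.21). All 6 probes of RAB5A, the master GTPase of early endosomes, had diet effects between 0.13 and 0.17, of which 1 was called (P = 0.00572). The ESCRT-II subunit VPS36 had line effects of -0.11 and -0.22. Other genes had probes that disagreed. The 2 probes of the GARP subunit VPS52 gave diet effects of 0.02 and -0.39, and the 4 probes of RAB27A, a RAB of secretory granules and exosomes, gave from -0.12 to 0.36. Probes of 1 gene share arrays and often sequence and are not replicates.

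**Figure D4:**
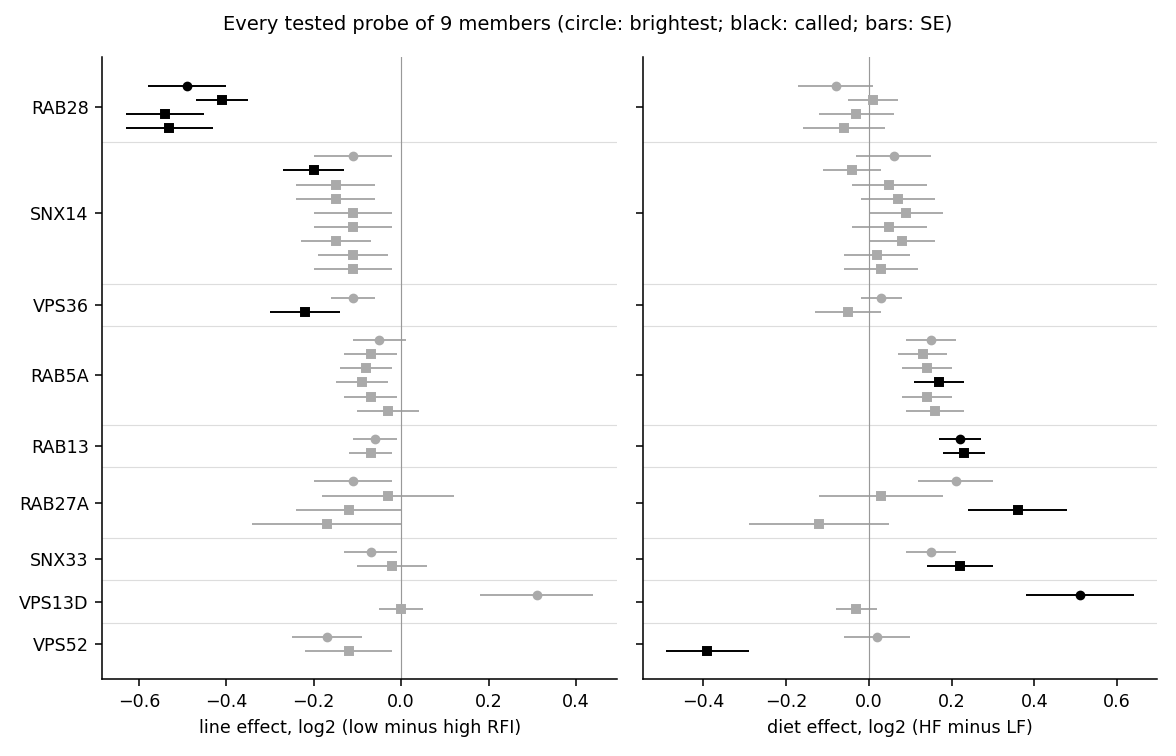
Line effect (left, log2, low minus high RFI) and diet effect (right, log2, HF minus LF) of every tested probe of 9 genes, with SE as bars, circles for the brightest probe and black for probes that were called. The 4 probes of RAB28 lie between -0.54 and -0.41 for line, whereas the 2 probes of VPS13D lie at 0.51 and -0.03 for diet.

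By their brightest probes, 0 genes of retromer (4 genes), HOPS and CORVET (7, VPS33B included), ESCRT (8) and GARP and EARP (3) were called by limma for either factor. With 6.91% of all probes called for line and 4.61% for diet, few calls could have fallen in so small a set. Retromer line effects were -0.07 ± 0.04 for VPS26A, -0.01 ± 0.07 for VPS26B, -0.02 ± 0.07 for VPS29 and 0.05 ± 0.06 for VPS35, and its diet effects lay between -0.05 and 0.03. ESCRT line effects ran from -0.12 (VPS25) to 0.08 (VPS37B), and those of HOPS and CORVET from -0.06 (VPS18) to 0.14 (VPS16). At an unadjusted P under 0.05, the line effects of VPS25, VPS36 and VPS52 and the diet effects of VPS4B and VPS16 were found, where 14.7% of all probes for line and 14.4% for diet lay under that limit. The RABs of late endosomes and lysosomes (6 tested) and those of regulated secretion (5) also had 0 calls by limma, with line effects from -0.11 to 0.05 in both sets, and the diet effects of RAB7A and RAB27A stood at an unadjusted P under 0.05. The 9 tested RABs of the ER and Golgi, which include RAB1 and RAB6 proteins, held RAB13 as their only call, and the 6 RAB effectors and regulators had 0 calls by limma, with a median line effect of -0.13. The name VPS16A had a diet effect of -0.12 (P = 0.00107), too small for the FC limit, and VPS16 had one of -0.18 (P = 0.0205). RAB7A, which drives the maturation of late endosomes, varied little between pigs (residual SD 0.10).

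RAB28, SNX10, SNX14, SNX19, RAB35, RAB3GAP1 and VPS53 are among the genes that the study picked from these same samples, and their values are not independent evidence of a direction. Only a shortened form of the study's gene list was read, so that others of the genes named here may be on it too. RAB35, which acts in recycling and actin control, had line effects of -0.04 ± 0.04 and 0.09 ± 0.07 on its 2 probes. RAB3GAP1, a regulator of RAB3 and RAB18, had 0.09 ± 0.07 and the GARP subunit VPS53 had -0.04 ± 0.08. RAB35, RAB3GAP1 and VPS53 were not called for line here (limma, P = 0.372 for the brightest RAB35 probe and 0.16 for RAB3GAP1). The study, by contrast, lists RAB35 among genes that differed between the lines in every tissue it examined.

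The spread between pigs of a group differed among genes. Of the 91 genes well above background on all 48 arrays, the median residual SD was 0.225, against 0.251 for the 36913 probes of that kind. The most variable were RAB15 (0.68), RAB26 (0.51), VPS13D (0.45), RAB11FIP5 (0.41) and RAB34 (0.40), and the steadiest were the ESCRT genes VPS4A and VPS24 (0.09 each). RAB15, a RAB of early and recycling endosomes, spanned 2.91 to 4.88 in low RFI pigs and 0.85 to 4.83 in high RFI pigs, the value of 0.85 coming from 1 pig fed HF.

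The question whether subunits of a complex varied together was put to 64 pairs of genes listed under 5 complexes, over 48 pigs with group means removed. Pearson's r ranged from -0.39 to 0.61 with a median of 0.05, and the median over all 4465 pairs of tested genes was 0.01. After Benjamini-Hochberg adjustment over the 64 pairs, 5 pairs passed 5%, all positive (2-sided permutation test, 100000 resamples within groups). The highest was that of VPS11 and VPS18, core subunits shared by HOPS and CORVET (r = 0.61, rho = 0.60, P = 1e-05, the smallest the permutations can give, adjusted 0.00064), and it was 0.57 without the 2 pigs farthest from the median of VPS11. It was followed by the ESCRT genes VPS25 and VPS4A (r = 0.55, rho = 0.63, P = 0.00014, adjusted 0.0045). Their r was 0.53 without 2 pigs and 0.40 in the deposited values. The ESCRT pair VPS25 and VPS37A passed with r = 0.44 (rho = 0.47, P = 0.0028, adjusted 0.036). Its r was 0.44 without 2 pigs and 0.24 in the deposited values.

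The nexins SNX1 and SNX2, alternative partners of SNX5 and SNX6, had r = 0.54 (rho = 0.61, P = 0.00026, adjusted 0.0055), which became 0.33 with slide means removed. The retromer pair VPS26B and VPS29 had r = 0.48 (rho = 0.46, P = 0.00046, adjusted 0.0074), while the other 5 retromer pairs lay between -0.19 and 0.16. VPS33B was listed with HOPS and CORVET, but in mammals VPS33A is their subunit and VPS33B works in a separate complex. The lowest r was that of these homologues, and so not of a pair of subunits of 1 complex (r = -0.39, rho = -0.40, P = 0.0061, adjusted 0.056), which was -0.30 without the 2 pigs farthest from the median and -0.04 in the deposited values. Each gene was read here from its brightest probe alone, and for several genes the probes followed each other weakly. With group means removed, the median r between probes of 1 gene was 0.08 for VPS18 (4 probes, lowest -0.30), -0.12 for VPS33A, 0.05 for VPS29, 0.22 for VPS26B and 0.04 for VPS35, against 0.74 for VPS37A (5 probes of 3 distinct sequences, lowest 0.62) and 0.71 for SNX1 (6 probes of 4 distinct sequences, lowest -0.18). Probes of the same sequence can raise these medians. The correlations are thus those of the probes used. All pairs share arrays, and array quality was not separated from covariation of the transcripts.

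**Figure D5:**
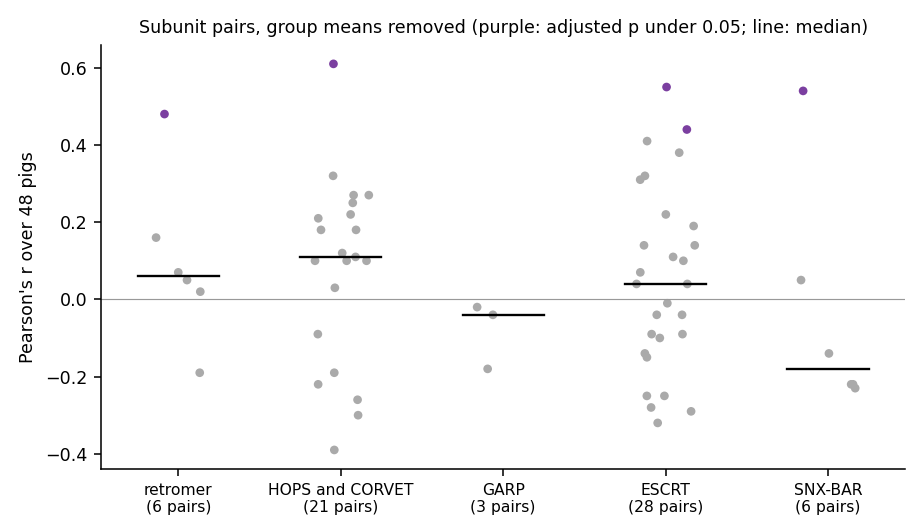
Pearson's r over 48 pigs, with group means removed, for each pair of genes listed under 5 complexes (VPS33B under HOPS and CORVET), with the median of a complex as a black line and pairs with an adjusted p under 0.05 in purple. Most pairs scatter around 0, and the highest pair, VPS11 and VPS18, reaches 0.61.

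Genes that act with RABs and endosomal complexes but have other names were read from lists of 90 names, of which 64 were tested. Some genes stand in the lists under an older and a newer name, and CHMP3 is another name of VPS24, so that 90 is not a number of genes. For line, 1 was called upwards and 5 downwards (9.38%, against 6.91% of all probes), and for diet 2 upwards and 0 downwards by limma (3.12%, against 4.61%). The largest was PIKFYVE, the kinase that makes the phosphoinositide of late endosomes, with a line effect of -0.59 ± 0.09 (P-BH = 1.77e-05). CCDC22, of the complex that works with retromer and COMMD proteins, had -0.21 ± 0.06 (P-BH = 0.027), and KIAA1033, a WASH subunit, had 0.24 ± 0.06 (P-BH = 0.0148). STAM2 of ESCRT-0 (-0.28), PIK3C3, the kinase that makes the lipid of early endosomes (-0.14), and RABIF (-0.25) were called and did not pass a P-BH of 5%. PIKFYVE and STAM2, too, are among the genes that the study picked from these samples. For diet, CHMP4C of ESCRT-III (0.40) and TBC1D10A, a RAB GTPase-activating protein (0.18), were called. Of 11 tested endosomal SNAREs, 0 were called for either factor by limma, with line effects from -0.07 to 0.15, and 0 for line and 0 for diet stood at an unadjusted P under 0.05.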

How the data were processed

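Liver RNA of 48 pigs (12 per RFI line and diet group, lines and diets as in the labels; diets from 74 d, liver sampled at 132 d) was hybridized to 1-colour arrays. Scanner files deposited by the authors (Feature Extraction 10.7.3.1) give the intensity of each spot, not normalized between arrays, and the authors also deposited log2 values made with R 2.10.0, which per the labels and values is the log2 median intensity centred per array for 37379 probes (largest SD of the difference 2.24e-07). Background-subtracted intensities were log2-transformed here, 483 outlier spots were set to missing, 0 spots were saturated, and arrays were centred on their median over the 45236 tested probes, those that the software found well above background on 12 or more arrays. The brightest probe stood for a gene. Line, diet and interaction were fitted with limma 3.58.1 in R 4.3.3, over all tested probes, with calls at P under 0.01 and FC above 1.1. Precision is limited by the number of arrays, and P-values measure the spread between pigs.

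Named were genes called on their brightest probe, genes with another probe at a P-BH of 5%, and genes in the shortened liver list of the study. By the same rule, the 5 most variable genes, the retromer subunits and the extreme subunit pairs were named. VPS36, VPS52, RAB5A, RAB27A, RAB7A, RAB42, RAB4A, VPS4A, VPS24 and the other genes outside this rule were singled out after their values were seen. The members and gene lists were chosen with earlier results of these data known. Correlations used Python 3.11.15 with numpy 2.4.6. Gene names are those of the array, and 68 of the 206 probes had an accession in the reference table of Sscrofa11.1, all under the same symbol. The files name no genome build, so no coordinates are given, and promoter motifs were not analysed here. The fit was tested on simulated data. Alternatives were an ANOVA without moderated variances, other centring, normalization, background correction, filters, batch terms, other probes and the deposited values.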

Additional observations from a re-analysis of the deposited data

How the results depend on the processing

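Direction held for all 13 called line and diet effects under every alternative run. RAB28 kept its call for line under all of them (-0.50 to -0.46), and so did RAB13 for diet (0.22 to 0.26). Beside 7 genes called for line, 4 were called with the normexp background correction (5.57% of all probes there) and 4 of 87 in the deposited log2 values (6.69% of all probes; RAB4B could not be tested), all among the 7. On scan day 1 alone 3 were called (3.84% of all probes), of which 1 was among the 7 (RAB28), on scan day 2 alone 4 (3.62%), of which 3 were among the 7, and at a P-BH under 5% 4. Beside 6 genes called for diet, 4 were called on scan day 1 alone (1.78% of all probes), of which 2 were among the 6, 2 on scan day 2 alone (2.06%), both among the 6, 5 of 87 in the deposited values (4.76%), of which 4 were among the 6, and 2 at a P-BH under 5%. The interaction had 0 calls throughout. Of single effects, SNX16 lost its line call under 7 alternatives, RAB25 its diet call under 6 and its line call under 4, and RAB21 its diet call under 3, and fewer arrays (24) stand behind a single scan day. Averaging the 2 disagreeing probes of VPS13D lowered its diet effect from 0.51 to 0.24, with P-BH = 0.113. On a single scan day, SNX10, SNX19, RAB13 and VPS13D all failed a P-BH of 5% (0.291 to 0.616), as did RAB4B on day 1 (0.47) and RAB28 on day 2 (0.124). The 5 subunit pairs became 2 of 61 in the deposited values, in which SNX1 and SNX2, 1 of the 5, could not be tested, and 8 without the 2 pigs farthest from the median. No paired analysis was possible because the labels give no replicate numbers shared between groups. For dim genes such as RAB33A, well above background on 19 arrays, signal over background limits what can be seen.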
